A study of Mus musculus with 6 samples.

Results

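Membrane carriers that move bile acids and organic anions through mouse hepatocytes were followed in the liver transcriptome, 10 of the 18419 genes with at least 1 count. They were taken by gene symbol from a fixed list, which was drawn up with earlier results of these data known, and comprised 5 uptake carriers (Slc10a1, Slco1a1, Slco1a4, Slco1b2 and Slco2b1) and 5 exporters (Abcb11, Abcb4, Abcc2, Abcc3 and Abcc4). RNA-seq covered 6 Mettl14f/f male mice that started a high-fat diet (HFD) at 8 weeks of age and received a vector through the tail vein after 10 weeks of HFD. The livers were collected 8 weeks later. In all, 3 mice were transduced with AAV8-TBG-GFP, the control labelled WT, and 3 with AAV8-TBG-Cre, labelled METTL14 KO, so all 6 carried the floxed alleles, the diet and an AAV8 vector. METTL14 is a subunit of the complex that writes the m6A mark on RNA. The TBG promoter is restricted to hepatocytes, so the vector does not target Mettl14 in other liver cells, while the RNA came from whole liver.

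Hepatocytes are polarized cells. Bile acids and other organic anions enter from the blood across the basolateral membrane, through the sodium-dependent carrier NTCP (Slc10a1) and the sodium-independent OATP family (Slco genes). They leave into bile across the canalicular membrane through ATP-driven pumps of the ABC family, and a further set of basolateral ABC pumps can return them to the blood. The bile acid receptor FXR (Nr1h4) is a known regulator of this traffic, and its best known binding element is an inverted repeat of AGGTCA with 1 base between the copies.

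Promoter sequences are shown for the carriers with the smallest p-values below, Abcb11 and Slco1b2, which were lower with AAV8-TBG-Cre, and Abcc4, which was higher. RefSeq, on GRCm38.p6, held an entry for 9 of the 10 carriers with 13 windows in all. The 250 bases before the transcription start of each entry were searched on either strand, and distances count from that start. Some windows, among them those of Slco1b2 and Abcc4, lie partly or wholly within the gene coordinates given below. Capitals mark matches to AGGTCANTGACCT with at most 1 mismatch, to GTTAAT (a core bound by HNF1 factors) and to TGACNNNGC (the core of the antioxidant response element). The motifs and the allowed mismatch were chosen with the expression results known. Abcb11 is on the minus strand at chr2:69342617-69342866 and Slco1b2 on the plus strand at chr6:141629268-141629517. The windows of Abcc4 are on the minus strand at chr14:118706220-118706469 and chr14:118676932-118677181.
Abcb11: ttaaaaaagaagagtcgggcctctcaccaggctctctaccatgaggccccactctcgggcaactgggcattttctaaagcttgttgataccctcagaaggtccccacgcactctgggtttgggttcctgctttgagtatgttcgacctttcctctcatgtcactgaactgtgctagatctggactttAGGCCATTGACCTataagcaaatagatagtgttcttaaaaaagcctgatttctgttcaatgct
Slco1b2: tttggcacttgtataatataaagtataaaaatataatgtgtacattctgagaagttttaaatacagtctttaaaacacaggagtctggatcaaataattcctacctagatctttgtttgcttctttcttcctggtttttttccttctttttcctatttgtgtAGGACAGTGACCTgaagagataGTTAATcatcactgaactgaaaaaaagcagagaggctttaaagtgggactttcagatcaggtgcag
Abcc4 window 1: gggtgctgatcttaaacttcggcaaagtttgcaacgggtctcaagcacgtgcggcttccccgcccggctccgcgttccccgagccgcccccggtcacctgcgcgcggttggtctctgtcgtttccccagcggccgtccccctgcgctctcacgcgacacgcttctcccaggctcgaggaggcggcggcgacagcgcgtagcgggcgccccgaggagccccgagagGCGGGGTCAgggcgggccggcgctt
Abcc4 window 2: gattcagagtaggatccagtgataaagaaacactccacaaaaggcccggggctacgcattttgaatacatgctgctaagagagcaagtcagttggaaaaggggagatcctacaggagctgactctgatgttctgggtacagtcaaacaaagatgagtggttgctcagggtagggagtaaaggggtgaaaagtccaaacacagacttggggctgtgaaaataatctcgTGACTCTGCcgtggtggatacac

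The inverted repeat was found in Abcb11, as AGGCCATTGACCT from 63 to 51 bases before the start, and in Slco1b2, as AGGACAGTGACCT from 88 to 76 bases before it. Each differed from the searched letters at 1 base, T4C in Abcb11 and T4A in Slco1b2, with the base of the motif first and positions counted from 1 at its 5′ end. Of 32851 promoter windows of that length, 26 held such a match (0.0791%). The plain hexamer AGGTCA, which also lies within these repeats, was in 5 of the 13 windows (1 each of Slc10a1, Slco1a1, Slco1b2, Abcb11 and Abcc2) and in 14.0% of all windows. TGACNNNGC was in 3 of the 13 windows (that of Abcc2 and either window of Abcc4), against 10.2% of all windows, and GTTAAT in 1 (Slco1b2), against 6.43%. These are matches of letters in a window and carry no measurement of binding.

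All 10 carriers passed the filter on low counts, beside 13431 genes tested in all. Fragments assigned to genes numbered 20356440 to 21010508 per library, of which the carriers took 0.306% to 0.391%. The first principal component (54.14% of the variance) separated the groups, with AAV8-TBG-Cre replicate 2 farthest from the controls, and this library also had the largest TMM scaling factor (1.1782, against 0.9131 to 1.0209 in the others). Levels are given as TMM-normalised counts scaled to library size (CPM) between livers and as FPKM, which is also scaled by transcript length, between genes. Library names come in a short form (AAV8-TBG-GFP replicates 1 and 2, AAV8-TBG-Cre replicate 1) and a long form (the other 3 libraries), which the labels do not explain, so the main comparisons are also given within a form. Mettl14 itself stood at 6.30, 6.43 and 5.81 CPM in the AAV8-TBG-GFP livers, called controls below, and at 4.96, 5.38 and 4.86 CPM in the AAV8-TBG-Cre livers. The log2 fold change was -0.29 ± 0.15 (SE, n = 3 per group, edgeR adjusted p = 0.337), and the FPKM values overlapped between the groups. The targeted gene therefore did not pass the test, and all groups are as labelled. For male livers on this diet the study reported less METTL14 protein and less total m6A with AAV8-TBG-Cre, at an earlier time after the vector. Those are other measures than the RNA of the gene.

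Slc10a1 was the most abundant carrier in the AAV8-TBG-GFP livers, with a mean of 436 ± 26.2 FPKM (SD, n = 3), rank 154 of 17481 genes by FPKM. Slco1b2, the liver-restricted OATP that takes up bile acids, bilirubin and many drugs, followed with 315 ± 6.44 FPKM. Abcb4 (97.9 ± 18.4 FPKM), Abcc2 (83.9 ± 4.88), Abcc3 (79.2 ± 12.6) and Abcb11 (76.5 ± 4.14) formed a group in which each neighbour in the order overlapped the next between livers. Slco2b1 (57.5 ± 12.4 FPKM), Slco1a1 (33.6 ± 21.7) and Slco1a4 (9.34 ± 3.69) came next, and within this trio neighbours overlapped as well. Abcc4 was last at 0.310 ± 0.0794 FPKM, rank 12550, below every value of every other carrier. With AAV8-TBG-Cre, Slc10a1 (380 ± 55.1 FPKM) and Slco1b2 (253 ± 24.5 FPKM) were still the highest, without overlap with each other or with the exporters, and Abcc4 (1.74 ± 1.61 FPKM) was still the lowest.

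**Figure D1:**
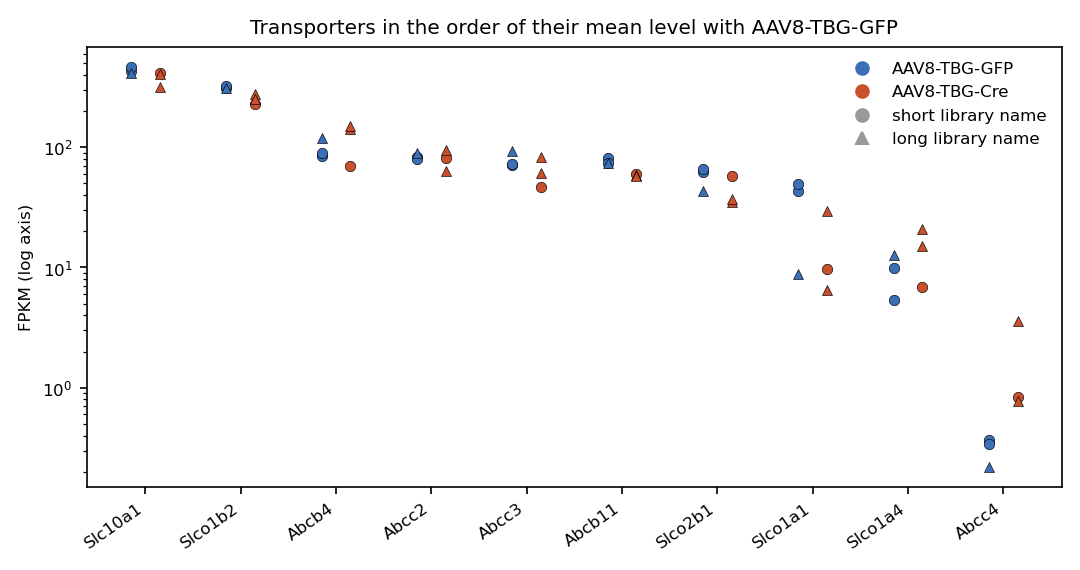
Level of each carrier in FPKM (log axis) in every liver, ordered by the mean with AAV8-TBG-GFP, with circles for short and triangles for long library names. Slc10a1 and Slco1b2 lie above all others in either group, and the Abcc4 points, 0.22 to 0.37 with AAV8-TBG-GFP and 0.78 to 3.6 with AAV8-TBG-Cre, lie below all others.

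The comparison of AAV8-TBG-Cre with AAV8-TBG-GFP asks which carriers differ when Mettl14 is targeted in adult hepatocytes under HFD. Abcb11, Slco1b2 and Abcc3 fell and Abcc4 rose at the threshold of the study, an unadjusted p under 0.05 with a fold change of at least 1.2 (edgeR quasi-likelihood test, n = 3 per group). That is 4 of 10 carriers, against 20.5% of all tested genes. The single increase stands against 12.0% of all genes called higher, and the 3 decreases against 8.41% called lower. No carrier (0 of 10) had a Benjamini-Hochberg adjusted p under 0.05 in edgeR, while 0.931% of all genes did, and DESeq2 gave 3 carriers (Abcb11, Slco1b2 and Abcc4) at that cut-off against 7.44% of its genes. At the unadjusted threshold DESeq2 gave 5 carriers, adding Slco2b1, against 16.2% of its genes. The log2 fold change was negative in 7 of 10 carriers, against 51.0% of all genes, and its median was -0.42, against -0.01 over all genes.

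The CPM ranges of the groups did not overlap for 6 carriers, against 27.0% of all genes, and 5 of these were lower with AAV8-TBG-Cre, against 13.0%. On the FPKM scale the groups of these carriers stayed apart for Abcb11, Slco1b2 and Abcc4, and overlapped for Slc10a1, Abcc2 and Abcc3. The shares over all genes above are for CPM, and none was calculated for FPKM. With 3 mice per group an exact two-sided permutation test of 1 gene cannot give a p under 0.1, the value of all 6 carriers without overlap. Without AAV8-TBG-Cre replicate 2 the same 4 carriers passed the threshold, while the genes past it in all numbered 1899, against 2747 with all libraries.

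**Figure D2:**
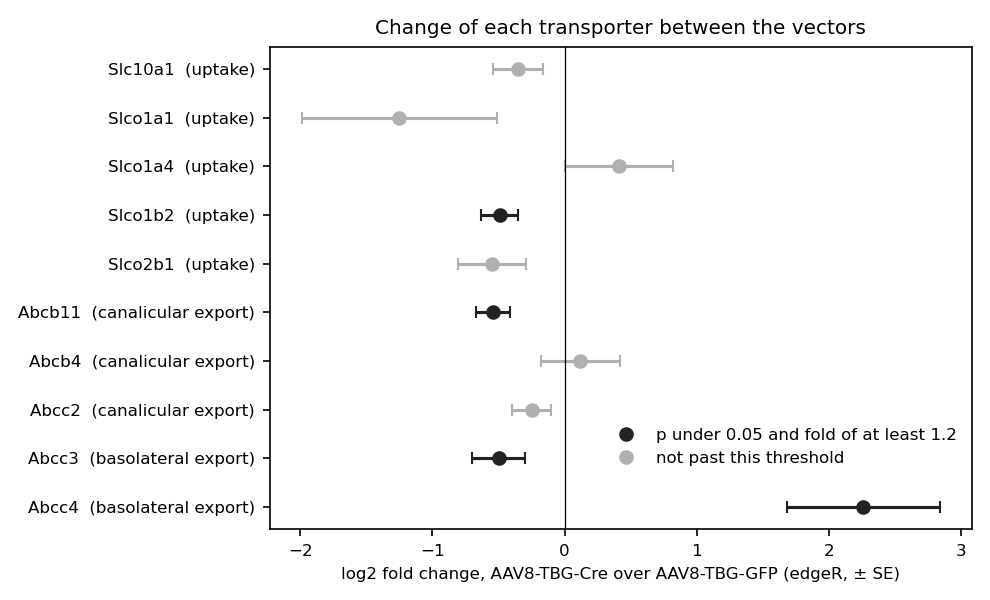
Log2 fold change (AAV8-TBG-Cre over AAV8-TBG-GFP, edgeR) with its SE for each carrier, n = 3 mice per group, black where p was under 0.05 and the fold at least 1.2. Abcc4 (2.26) lies far to the right, and Slco1b2 (-0.49), Abcb11 (-0.54) and Abcc3 (-0.50) lie left of 0 with short bars, while the bar of Slco1a1 (-1.25 ± 0.74) is the widest.

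Among the uptake carriers, Slco1b2 (NCBI gene 28253, chr6:141629452-141686646) had the clearest decrease. It stood at 1068, 1129 and 1140.5 CPM in the controls and at 746, 785 and 849 CPM with AAV8-TBG-Cre. Every AAV8-TBG-Cre liver was below every control, and the mean changed by -28.7%, from 1113 ± 38.8 to 793 ± 51.7 CPM (SD, n = 3). The log2 fold change was -0.49 ± 0.14 (SE, edgeR adjusted p = 0.119). In FPKM the values were 310, 323 and 313 against 229, 278 and 252, and the groups again did not overlap. Within library name forms the log2 ratio of mean CPM was -0.56 for short and -0.48 for long names, and without AAV8-TBG-Cre replicate 2 the fold change was -0.48.

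Slc10a1 (gene 20493, chr12:80953185-80968705), the main sodium-dependent bile acid carrier, did not pass the test. Its level was 744, 816 and 755 CPM in the controls and 684, 449 and 683 CPM with AAV8-TBG-Cre, with no overlap, at a log2 fold change of -0.35 ± 0.19 (edgeR adjusted p = 0.350). AAV8-TBG-Cre replicate 2 was far below the other livers, and without it the fold change was -0.18 (adjusted p = 0.612, where the 16 alternatives ran from 0.212 to 0.612). In FPKM the groups overlapped, with 430, 465 and 413 against 418, 317 and 405. One transcript, NM_001177561, carried 98.7% to 99.3% of the Slc10a1 counts in every library.

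Slco2b1 (gene 101488, chr7:99657804-99711340), an OATP with a broad tissue range that carries steroid sulfates, had 291, 313 and 212 CPM against 255, 134 and 167 CPM. Its log2 fold change was -0.55 ± 0.26 (edgeR adjusted p = 0.271), just short of the threshold, and AAV8-TBG-Cre replicate 1 lay among the controls. It passed the threshold in 6 of 16 alternative analyses, DESeq2 and the fit with the name form as a covariate among them. Its transcript NM_175316 took 74.1% to 82.2% of its counts and NM_001252531 took 16.3% to 24.2%.

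Slco1a1 (gene 28248, chr6:141907281-141946962) and Slco1a4 (gene 28250, chr6:141805438-141856284) are neighbours of Slco1b2 on chromosome 6. Slco1a1 is known for a higher level in male mouse liver and Slco1a4 for a higher level in females. Their deposited counts were not whole numbers, so some fragments were split with other genes, which the counts do not name, and the split is uncertain. The same held for Slc10a1 in every library, and for Abcc4 in AAV8-TBG-GFP replicate 3 and AAV8-TBG-Cre replicate 2. Slco1a1 was the most variable carrier, at 178, 207 and 38.7 CPM in the controls and 38.1, 22.1 and 119 CPM with AAV8-TBG-Cre. Replicate 3 of each group went against the other 2 livers of that group, so the groups overlapped and the log2 fold change of -1.25 ± 0.74 did not pass (edgeR adjusted p = 0.382). The log2 ratio of means was -2.34 within short names and 0.86 within long names. With AAV8-TBG-Cre replicate 3 left out the difference was -2.24 (edgeR adjusted p = 0.183), and with AAV8-TBG-GFP replicate 3 left out it was -1.71 (adjusted p = 0.226, where the alternatives ran from 0.183 to 0.717), either of which passed the unadjusted threshold.

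Slco1a4 was at 39.8, 22.1 and 54.3 CPM in the controls and at 26.2, 68.9 and 59.2 CPM with AAV8-TBG-Cre, with a log2 fold change of 0.41 ± 0.41 (edgeR adjusted p = 0.614) that was 0.00 with the name form as a covariate. Here the 3 livers with long names held the 3 highest values. The FPKM ratio of Slco1a1 to Slco1a4 was 4.35, 9.08 and 0.691 in the controls and 1.41, 0.310 and 1.94 with AAV8-TBG-Cre, a wide and overlapping spread. Of 12 male-biased liver genes outside the carriers, all tested, 1 rose and 3 fell (median log2 fold change -0.22), and of 7 tested female-biased genes 1 rose and 2 fell (median -0.59), against 12.0% of all genes called higher and 8.41% called lower.

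**Figure D3:**
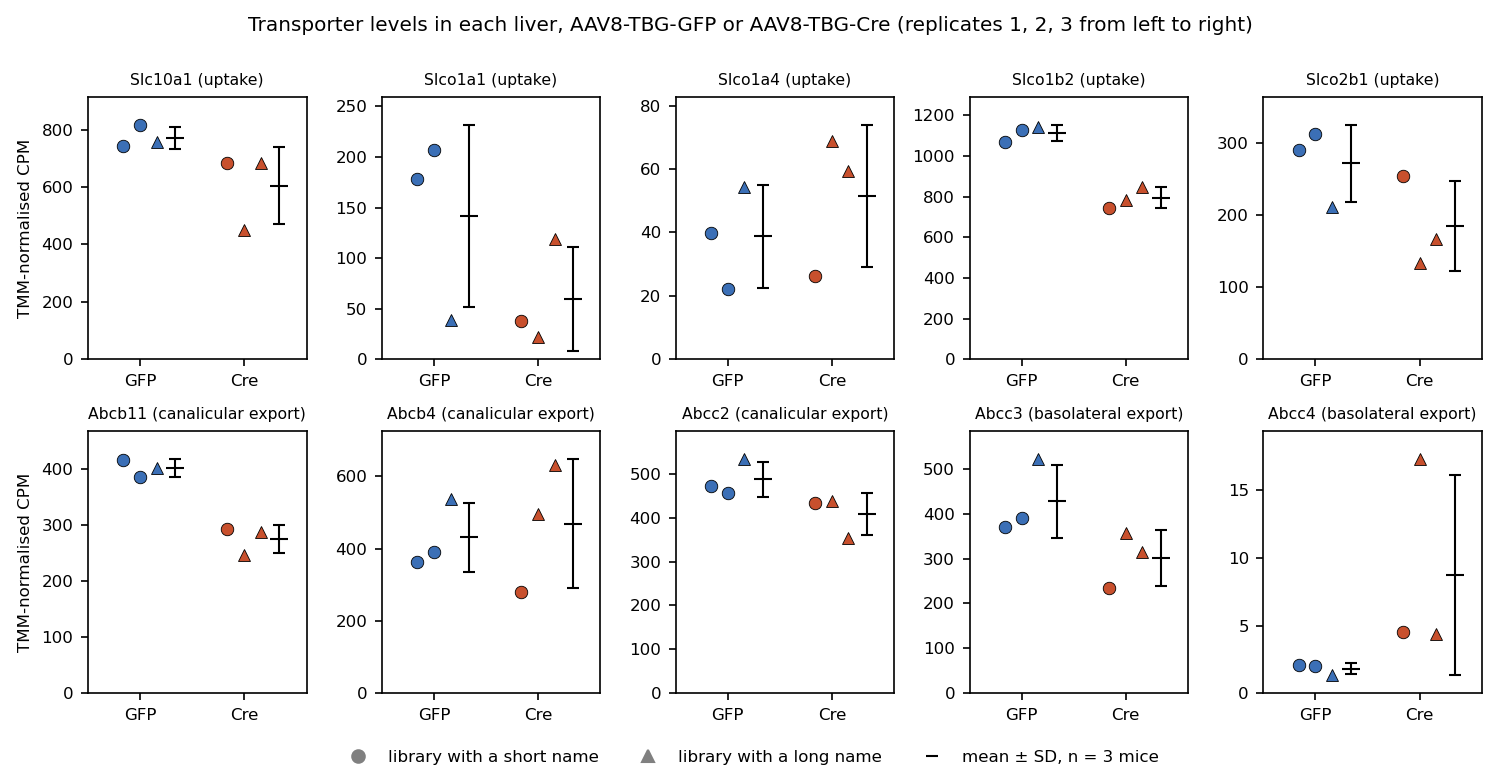
TMM-normalised CPM of each carrier in every liver, replicates 1 to 3 from left to right within a group, with the mean and SD (n = 3) beside them, circles for short and triangles for long library names. The groups do not overlap for Slc10a1, Slco1b2, Abcb11, Abcc2, Abcc3 and Abcc4, whereas Slco1a1, Slco1a4 and Abcb4 overlap widely.

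The canalicular exporters did not move together. Abcb11 (gene 27413, chr2:69238282-69342616) encodes the bile salt export pump BSEP, which drives bile acids into bile. Its level was 417, 387 and 403 CPM in the controls and 293, 247 and 289 CPM with AAV8-TBG-Cre, and every AAV8-TBG-Cre liver was lower than every control. The mean changed by -31.3%, from 402 ± 15.3 to 276 ± 25.2 CPM, and the log2 fold change was -0.54 ± 0.13 (edgeR adjusted p = 0.0789). FPKM gave 81.3, 74.1 and 74.1 against 60.3, 58.7 and 57.5, again apart. The log2 ratio of means was -0.46 within short and -0.59 within long names, and without AAV8-TBG-Cre replicate 2 the fold change was -0.47.

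Abcb4 (gene 18670, chr5:8893614-8959226), the floppase that supplies phosphatidylcholine to bile, had 362, 391 and 538 CPM against 280, 496 and 631 CPM. Its groups overlapped, the log2 fold change was 0.12 ± 0.30 (edgeR adjusted p = 0.851), and the sign turned to -0.18 with the name form as a covariate. As for Slco1a4, the 3 livers with long names held the 3 highest values. Its deposited counts were not whole numbers either, so the split of fragments with other genes is uncertain, as for Slco1a1. The FPKM ratio of Abcb11 to Abcb4 was 0.958, 0.823 and 0.623 in the controls and 0.871, 0.415 and 0.380 with AAV8-TBG-Cre, where AAV8-TBG-Cre replicate 1 lay among the controls.

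Abcc2 (gene 12780, chr19:43782308-43838332) encodes MRP2, which exports conjugated bilirubin and other conjugates into bile. It had 472, 455 and 532 CPM against 434, 438 and 352 CPM, which did not overlap, but the log2 fold change of -0.25 ± 0.15 did not pass (edgeR adjusted p = 0.371) and the FPKM values overlapped.

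The basolateral exporters moved in opposite directions. Abcc3 (gene 76408, chr11:94343295-94393017) encodes MRP3, a pump for glucuronide conjugates that faces the blood. Its level was 371, 390 and 521 CPM in the controls and 234, 356 and 314 CPM in the AAV8-TBG-Cre livers, with a log2 fold change of -0.50 ± 0.20 (edgeR adjusted p = 0.217). The controls were all higher in CPM, but FPKM overlapped (70.8, 73.1 and 93.8 against 47.1, 82.8 and 61.2). The decrease passed the threshold in only 8 of 16 alternatives and was lost, among others, without AAV8-TBG-Cre replicate 1 (-0.35), AAV8-TBG-Cre replicate 3 (-0.54), AAV8-TBG-GFP replicate 2 (-0.57) or AAV8-TBG-GFP replicate 3 (-0.35). Within short and long names the log2 ratio of means was -0.70 and -0.64, and with the name form as a covariate the fold change was -0.67 (edgeR adjusted p = 0.0514, with a range up to 0.471 over the alternatives). In that fit 5 of 10 carriers passed the threshold, the 4 above and Slco2b1, against 19.4% of all genes.

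Abcc4 (gene 239273, chr14:118482692-118707856) encodes MRP4, a basolateral pump that carries bile acids together with glutathione and is low in normal liver. It had only 42, 39 and 26 counts in the AAV8-TBG-GFP livers and 95, 420 and 91 in the AAV8-TBG-Cre livers. Exact Poisson 95% intervals, for counting error only, ran from 17.0 to 38.1 for the lowest control count and from 381 to 462 for the highest count. In CPM the values were 2.13, 1.99 and 1.36 against 4.53, 17.3 and 4.38, so the groups did not overlap, and AAV8-TBG-Cre replicate 2 was far above the other 2 livers of its group. The log2 fold change was 2.26 ± 0.58, a 4.77-fold increase (edgeR adjusted p = 0.0903). Without AAV8-TBG-Cre replicate 2 it was 1.28 (edgeR adjusted p = 0.106, where the alternatives ran from 0.00153 to 0.293), and the log2 ratio of means was 1.14 within short and 2.99 within long names.

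The transcripts of Abcc4 also set that library apart. NM_001163676 took all Abcc4 counts in 5 libraries, and in AAV8-TBG-Cre replicate 2 it took 70.0%, with an expected count of 94.27 for NM_001163675 and 31.91 for NM_001033336. Even there Abcc4 reached only 3.60 FPKM, below Slco1a4, the next lowest carrier, in every liver. Cholangiocyte markers (Epcam, Krt19, Sox9, Spp1 and others) were higher in the same livers. All 8 tested of 9 passed the threshold upward, against 12.0% of all genes called higher, with a median log2 fold change of 2.45. Their summed level was 72.2 to 128 CPM with AAV8-TBG-GFP and 306 to 574 CPM with AAV8-TBG-Cre, highest in AAV8-TBG-Cre replicate 2. Spp1 alone made up most of that sum, at 38.0 to 89.0 CPM with AAV8-TBG-GFP and 219 to 457 CPM with AAV8-TBG-Cre. Of 9 macrophage markers 6 were called higher and none lower (median 0.60), with sums of 213 to 244 against 308 to 416 CPM. Of 9 stellate cell markers 4 were called higher (Col1a1, Col1a2, Col3a1 and Pdgfrb) and none lower. Their sums were 239 to 366 against 467 to 972 CPM. The stellate median was only 0.38, and 3 of the 9 (Lrat, Reln and Acta2) had a negative log2 fold change. Over all genes, 12.0% were called higher and 8.41% lower. The part of these cells in the Abcc4 values was not tested.

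For the carriers that were lower, the hepatocyte markers are the corresponding values. Of 10 hepatocyte markers, all tested, 1 rose (Cps1) and 1 fell (Ttr), which is 20.0% and close to the 20.5% of all genes. Cps1 lost the threshold in 5 of 16 alternatives and Ttr in 7. For the hepatocyte markers the median log2 fold change was 0.09, and Alb was at 62435 to 80785 CPM with AAV8-TBG-GFP and at 54608 to 67849.9 CPM with AAV8-TBG-Cre. Of 8 endothelial markers 1 fell (Stab2, lost in 5 of 16 alternatives), which is 12.5%, against 8.41% of all genes called lower. All 8 had a negative log2 fold change, against 51.0% of all genes, with a median of -0.31. In bulk liver, fewer cells of a type and less RNA per cell cannot be told apart.

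**Figure D4:**
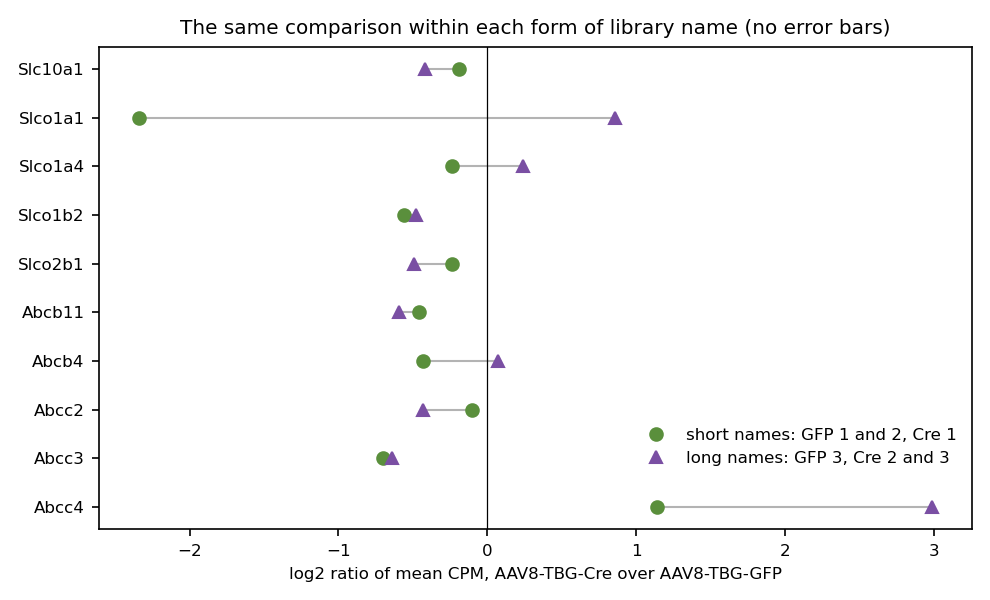
Log2 ratio of mean CPM (AAV8-TBG-Cre over AAV8-TBG-GFP) of each carrier, calculated within the libraries with short names (circles) and within those with long names (triangles), with no error bars because each form leaves 1 group with 1 library. Slco1b2, Abcb11 and Abcc3 lie on the same side at similar distances, Abcc4 is on the right for either form (1.14 and 2.99), and Slco1a1 (-2.34 and 0.86), Slco1a4 and Abcb4 lie on opposite sides of 0.

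Read by role, 1 of 5 uptake carriers (20.0%) passed the threshold, downward, close to the 20.5% of all genes, and the median log2 fold change of the uptake carriers was -0.49. Of the 5 exporters 2 fell and 1 rose (60.0% called), and their median was -0.25. Summed FPKM of the uptake carriers was 856, 908 and 791 in the controls and 722, 657 and 738 with AAV8-TBG-Cre, lower in every AAV8-TBG-Cre liver. Slc10a1 and Slco1b2 together made up 86.5% to 91.8% of that sum in every library. Summed FPKM of the exporters was 321, 317 and 376 against 258, 381 and 335 and overlapped. The ratio of the sums, uptake over export, was 2.67, 2.87 and 2.10 in the controls and 2.79, 1.72 and 2.21 with AAV8-TBG-Cre, which also overlapped. Sums over FPKM weigh abundant carriers most and have no test here.

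The ratio of Abcb11 to Slco1b2, the main pump into bile over the main OATP, stayed in a narrow range, 0.262, 0.230 and 0.237 in the controls and 0.263, 0.211 and 0.228 with AAV8-TBG-Cre in FPKM. The genes whose profile over the 6 libraries was nearest to that of Slco1b2, among 11428 genes, were Rnf7, Slc35b4 and Susd1, with a root-mean-square difference of centred log2 CPM of 0.0476, 0.0562 and 0.0574 (median over all genes 0.299). For Abcb11 the nearest were Coq10a, Abhd3 and Tcaim, with 0.0347, 0.0420 and 0.0503 (median 0.322). Since this likeness uses the same 6 libraries, it is a description of their levels only.

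Other carriers of the liver were split as well, and the shares over all genes to set beside this and the next 3 lists are 12.0% called higher and 8.41% called lower. Of 21 further transporter genes on a fixed list 16 could be tested, and 4 rose (Abcc1, Abcc5, Slco3a1 and Abcb1b) and 5 fell (among them Slc22a7, Abcg2, Abcg8 and Slc47a1), with a median log2 fold change of 0.07. Slc22a7, the organic anion transporter OAT2, had 65.5, 87.1 and 64.1 CPM in the controls and 41.5, 20.3 and 29.8 CPM with AAV8-TBG-Cre (log2 fold change -1.24 ± 0.25, edgeR adjusted p = 0.0619). Abcg2, the canalicular pump BCRP, fell by 0.52 on the log2 scale and lost the threshold in 3 of 16 alternatives. Abcc5, a relative of Abcc4, had 5.39, 5.46 and 3.98 CPM against 8.21, 12.2 and 9.0 CPM (0.99 ± 0.21, edgeR adjusted p = 0.0677). The organic solute transporter subunit Slc51b was at 0.143 to 0.628 CPM and could not be tested, and its partner Slc51a had no counts.

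Of 16 tested enzymes of bile acid synthesis and conjugation on a list of 17, 1 rose (Cyp7a1) and 4 fell (Cyp46a1, Cyp27a1, Akr1d1 and Baat), which is 31.2% called against 20.5% of all genes. Their median log2 fold change was -0.27, and Akr1d1 lost the threshold in 8 of 16 alternatives. Cyp7a1, the rate-limiting enzyme of the classic pathway, had 229, 170 and 229 CPM in the controls and 269, 273 and 270 CPM with AAV8-TBG-Cre, without overlap (0.37 ± 0.15, edgeR adjusted p = 0.207), and it lost the threshold in 5 of 16 alternatives. Cyp27a1, which opens the alternative pathway, fell by 0.60 on the log2 scale (adjusted p = 0.119), and Baat, which conjugates bile acids with taurine, fell by 0.36. Cyp46a1, a cholesterol 24-hydroxylase best known from neurons, had the only adjusted p under 0.05 on this list, at 6.91, 7.35 and 9.42 CPM against 1.86, 1.31 and 1.44 CPM (-2.36 ± 0.23). Cyp8b1, which sets the share of cholic acid, had a log2 fold change of -0.20 ± 0.40 with overlapping groups.

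Of 13 tested receptors and regulators of these genes on a list of 15, 5 fell (Nr1i3, Ppara, Nr1h4, Nr1i2 and Nr0b2) and none rose, which is 38.5% called, against 8.41% of all genes lower and 12.0% higher. The median log2 fold change was -0.20. Nr1h4, which encodes FXR, had 165, 174 and 173 CPM in the controls and 149, 101 and 119 CPM with AAV8-TBG-Cre, without overlap (-0.48 ± 0.15, edgeR adjusted p = 0.147). Nr0b2, the repressor SHP and a known target of FXR, had 44.0, 35.5 and 52.8 CPM against 25.3, 37.9 and 17.5 CPM (-0.71 ± 0.27, adjusted p = 0.200), overlapped, and kept the threshold in 7 of 16 alternatives. Nr1i3, the xenobiotic receptor CAR, had 181, 165 and 194 CPM against 84.7, 117 and 88.0 CPM (-0.90 ± 0.15, edgeR adjusted p = 0.0491). Ppara, the fatty acid receptor, fell by 0.52 and Nr1i2, the receptor PXR, by 0.49 on the log2 scale, and Nr1i2 lost the threshold in 6 of 16 alternatives.

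Genes that anchor carriers in the canalicular membrane or move them there showed 2 increases and 1 decrease among 12 tested (25.0% called, near the 20.5% of all genes), with a median of 0.04. Ezr (ezrin), which links membrane proteins to actin, rose by 1.41 ± 0.31 on the log2 scale (edgeR adjusted p = 0.0707) and its relative Msn (moesin) by 0.53, and Msn lost the threshold in 5 of 16 alternatives. Myo5b, a motor of recycling endosomes, had 39.6, 42.1 and 42.0 CPM against 30.5, 33.1 and 33.2 CPM (-0.35 ± 0.09, edgeR adjusted p = 0.0905) and lost the threshold in 3 of 16. Ezr was highest in AAV8-TBG-Cre replicate 2 (17.5 CPM), as was the summed level of the cholangiocyte markers, whose part in the Ezr values was not tested.

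**Figure D5:**
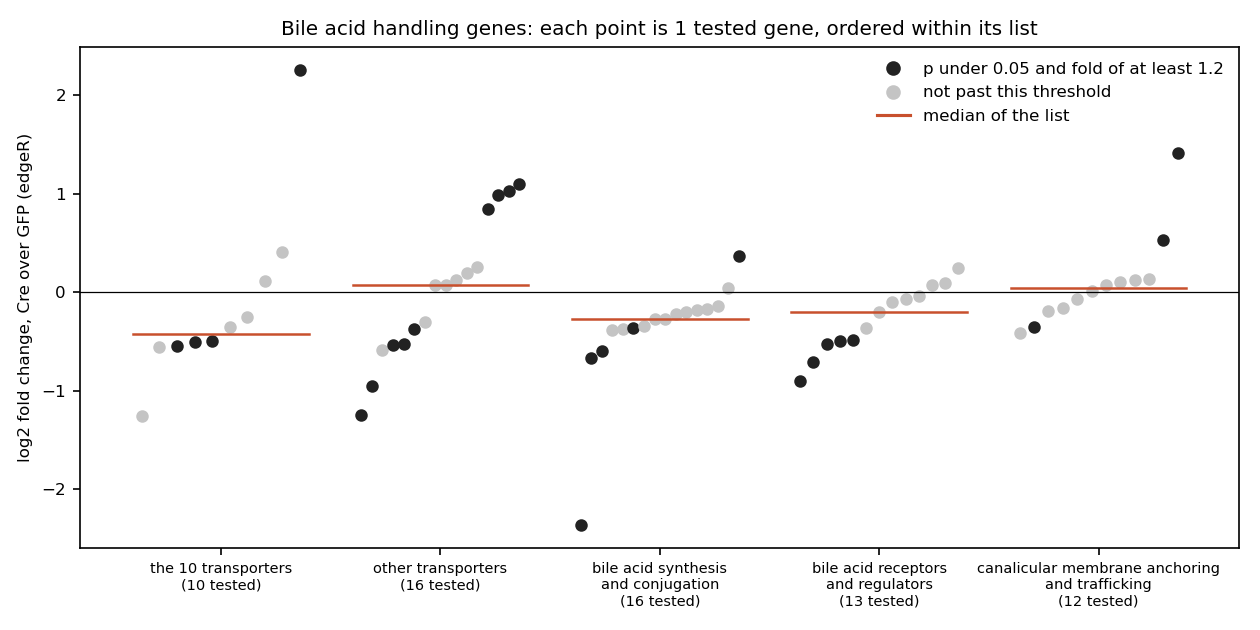
Log2 fold change (AAV8-TBG-Cre over AAV8-TBG-GFP, edgeR, n = 3 mice per group) of the 10 carriers and of every tested gene on 4 lists of bile acid handling, 1 point a gene in order of its value, black where p was under 0.05 and the fold at least 1.2, with the median of each list as a line. The receptors and regulators have black points only below 0, whereas the other lists have them on either side.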

How the data were processed

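Liver RNA of 6 mice was sequenced at BGI, and samples were grouped by the vector in their labels. The authors deposited expected counts per RefSeq transcript, estimates that need not be whole and are not normalized, and FPKM per transcript and gene, scaled by length and by mapped fragments. The submitters' processing notes list mm10, HISAT2, Bowtie2 and RSEM, whereas the methods of the study name STAR, HTSeq and DESeq2, and versions are not given in the sources used here. Expected counts were summed by NCBI gene ID and rounded. The vectors were compared with the quasi-likelihood test of edgeR 4.0.16 (R 4.3.3, TMM, filterByExpr), tested on simulated data. SEs came from the quasi-F statistic. DESeq2 1.42.0 and limma 3.58.1 on log2(FPKM + 1) served as alternatives. In the main test, p-values set the difference between the vectors against the spread between mice of a group, estimated with help from all genes. They cover these 6 mice only. Lists are described by counts and medians, with no set test. The text names all 10 carriers, up to 4 genes per list with the smallest p among those past the threshold, with their values, 6 defining genes, and the 3 genes most like Slco1b2 and Abcb11. The members and lists were chosen with earlier results of these data known. Promoter windows came from RefSeq on GRCm38.p6, the primary build of mm10, and gene coordinates from the same assembly.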

Additional observations from a re-analysis of the deposited data

How the results depend on the processing

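The numbers of carriers and of all genes past each cut-off were recomputed under 16 alternatives. So were the medians by role and the fold changes of the carriers. On the other lists only some genes were followed in this way, and Baat, Slc47a1, Abcg8, Abcc1, Slco3a1 and Abcb1b were not. Abcb11 (log2 fold change -0.59 to -0.37), Slco1b2 (-0.54 to -0.32) and Abcc4 (0.91 to 2.57) kept their direction and the unadjusted threshold in all 16 alternatives. Between 3 and 5 carriers passed this threshold, beside 1899 to 3730 genes in all. By adjusted p, 3 carriers passed in DESeq2 and 0 to 2 when 1 mouse was left out (Abcb11 and Abcc4 without AAV8-TBG-Cre replicate 1), and 0 in the other alternatives. Abcb4 (0.12) turned to -0.18 with the name form as a covariate and lay between -0.15 and 0.39 when 1 mouse was left out, negative without AAV8-TBG-Cre replicate 3. Cyp8b1 (-0.20) lay between -0.85 and 0.08 when 1 mouse was left out, positive without AAV8-TBG-Cre replicate 1. The cause was not tested. Genes with an adjusted p under 0.05 numbered 125, and 1157 with DESeq2, 66 with upper quartile normalization, 372 without a filter, 76 with at least 10 counts in every library, 214 with the name form as a covariate, 22, 27 and 9 with limma on log2(FPKM + 1), on log2(FPKM + 0.1) and on log2(FPKM + 1) without a filter, and 0 to 928 when 1 mouse was left out (0 without AAV8-TBG-Cre replicate 2 or AAV8-TBG-GFP replicate 2, 928 without AAV8-TBG-Cre replicate 1). Genes past the unadjusted threshold split into 1618 higher and 1129 lower, into 1922 and 737 with upper quartile normalization and into 1880 and 365 with limma on log2(FPKM + 1), where the median of all genes was 0.112. The median of the exporters was -0.09 in the 3 limma fits on FPKM. Libraries with the same replicate number did not deviate together (correlations 0.045, -0.280 and 0.229), and 2 of 6 libraries correlated best with their own number, so the numbers were not taken as pairs. With the replicate number as a block, 5 carriers and 2597 genes in all passed the unadjusted threshold. At an adjusted p under 0.05, 0 carriers and 7 genes in all passed in that fit. The counts of Abcc4, 26 to 420 per library, limit the precision of its fold change.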
